A study of Mus musculus with 10 samples.

Results

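Malat1, Neat1, Snhg1, Snhg3, Snhg5, Snhg12, Gas5 and Zfas1 are long noncoding RNAs of the nucleus or hosts of small nucleolar RNAs (snoRNAs). These 8 genes, of 17404 in the deposited gene table, were chosen by name from earlier results of these data, so their differences between the groups are given as a description. How many of them passed the threshold is printed only beside the same count over all genes, and supports nothing. They comprise 2 nuclear RNAs, Malat1 and Neat1, and 6 snoRNA hosts. All 8 were in the gene table and passed the filter of at least 11 counts in total, and 73 of their annotated transcripts were in the transcript tables.

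The libraries were made from RNA of LT-HSCs (long-term hematopoietic stem cells) sorted from fetal livers at E14.5. In the KO group (6 embryos, Tnfrsf11aCre; Spi1f/f) Cre recombinase is expressed from the Tnfrsf11a locus and deletes the floxed Spi1 gene, which codes for the myeloid factor PU.1. The WT group (4 embryos, Tnfrsf11a+/+; Spi1f/f) carries the same floxed alleles without Cre. The model is meant to remove macrophages that descend from Tnfrsf11a-expressing precursors, so the stem cells are not its intended target, and the comparison asks how the sorted LT-HSCs differ when such macrophages are depleted.

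In cells, Malat1 RNA lies in nuclear speckles, domains rich in splicing factors, and Neat1 RNA is the scaffold of paraspeckles, nuclear bodies built by its long isoform. The snoRNA hosts work differently: their introns hold snoRNAs, which guide chemical modification or cleavage of ribosomal RNA, while the spliced host RNA reaches the cytoplasm and is often removed by nonsense-mediated decay. Several hosts begin with a run of pyrimidines at the transcription start, a feature they share with ribosomal protein genes. The balance between host RNA and mature snoRNA is therefore set by transcription, splicing and decay together.

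The first sequences shown are the annotated starts of the hosts, taken from RefSeq (GRCm38.p6), because this is where a pyrimidine run lies in genes of that class. Each line holds 60 bases, with the annotated start as base 26. Capitals mark the longest run of C and T that begins with C, is at least 5 bases long and touches the 10 bases on either side of the start.
Gas5, downstream start, chr1:161035141-161035200, plus strand: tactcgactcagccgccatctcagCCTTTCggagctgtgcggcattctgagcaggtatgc
Snhg12, chr4:132308653-132308712, plus strand: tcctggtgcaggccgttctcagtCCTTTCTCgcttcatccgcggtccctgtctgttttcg
Snhg3, chr4:132353652-132353711, minus strand: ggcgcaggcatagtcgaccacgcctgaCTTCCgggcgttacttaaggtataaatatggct
Snhg5, chr9:88522863-88522922, minus strand: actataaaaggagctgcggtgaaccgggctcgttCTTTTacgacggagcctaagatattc
Snhg1, chr19:8723462-8723521, plus strand: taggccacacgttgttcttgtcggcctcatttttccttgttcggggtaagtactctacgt
Zfas1, chr2:167062909-167062968, plus strand: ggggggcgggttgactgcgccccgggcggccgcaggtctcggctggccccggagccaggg

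Such a run was present at 4 of the 6 hosts, and at 7 of the 13 other noncoding snoRNA hosts that had a promoter window. A host was counted if any of its starts held a run. Of all 32851 promoter windows of the same length on the annotated strand, 35.8% held a run by this rule. That share is per window and not per gene, so it is not the same measure. The run was 8 bases long in Snhg12, 6 in Gas5 and 5 in Snhg3 and Snhg5. In Snhg12 and Gas5 it spanned the start, and in Snhg3 and Snhg5 it began 2 and 9 bases after it. The upstream start of Gas5 held none. These are annotated starts, not starts measured in these libraries, and a run is only a match of letters.

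Malat1 lies at chr19:5795690-5802672 on the minus strand (GRCm38), as a single unspliced transcript, Malat1-201, of 6983 bases with shorter annotated forms inside it. Its 5′ part is shown because it decides how the reads of this gene were divided. Here 216 bases, chr19:5802218-5802433 on the minus strand, run from position 240 to 455 of Malat1-201, counted from its 5′ end. The 156 capitals belong at the same time to Malat1-201, to the short spliced form Malat1-203 and, on the opposite strand, to Gm37376, a single-exon entry of unclear status.
Malat1, 5′ part: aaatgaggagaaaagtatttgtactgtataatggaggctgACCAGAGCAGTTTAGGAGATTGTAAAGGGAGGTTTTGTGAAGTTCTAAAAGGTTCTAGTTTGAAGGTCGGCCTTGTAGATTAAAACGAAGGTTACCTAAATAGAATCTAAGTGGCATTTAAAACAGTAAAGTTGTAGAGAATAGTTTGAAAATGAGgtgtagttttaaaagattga

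Neat1 lies at chr19:5824708-5845478 on the minus strand. Its short isoform, Neat1-202 (3004 bases), and its long isoform, Neat1-201 (20771 bases), begin together and differ in where they end. The last 60 bases of each are shown because the library protocol copies polyadenylated RNA, and capitals mark the polyadenylation hexamer AATAAA.
Neat1-202, chr19:5842307-5842366, minus strand: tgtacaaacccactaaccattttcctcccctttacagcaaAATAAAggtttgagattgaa
Neat1-201, chr19:5824708-5824767, minus strand: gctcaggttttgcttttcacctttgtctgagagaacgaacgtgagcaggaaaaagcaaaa

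The hexamer began 20 bases before the end of the short isoform and was not found in the last 60 bases of the long one, which ends in an A-rich stretch encoded in the genome. On the transcript strand, it was present in the last 60 bases of 27.2% of 141515 annotated transcripts. The forms of a locus may thus enter a polyadenylated library unequally, and their shares were read only between libraries.

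The gene counts of a library totalled between 5315435 and 30941726 in the KO group and between 7633446 and 18256010 in the WT group. All 10 markers of LT-HSCs were measured in every library, with a summed level of 609 to 1804 CPM (TMM-normalized counts scaled to a common library size) in KO and 505 to 732 in WT. Cd34, Hlf and Mecom, of these markers, were higher in KO (edgeR quasi-likelihood test, Benjamini-Hochberg adjusted p = 0.0824, 0.0906 and 0.0836). The other markers of the list did not pass this test. Among them Tal1 was lower in KO on average, at 58.0 CPM against 108 in WT. Slamf1 had 9.86 to 76.9 CPM in KO and 18.2 to 33.4 in WT. Endothelial markers summed to 976 to 6271 CPM in KO and 260 to 4017 in WT, with Stab2, of the liver sinusoids, at 6.07 to 2118 CPM. Summed markers of erythroblasts ranged from 294 to 7128 CPM over all libraries, those of hepatoblasts from 55.8 to 5858 and those of granulocytes from 6.07 to 2108, in both groups with wide overlap. Epor, an erythroblast marker, was lower in KO, at 62.0 ± 16.3 CPM against 124 ± 46.9 in WT (edgeR adjusted p = 0.0937). No other marker of these 3 cell types passed the test. Of 12 macrophage markers, Marco was at 0 in all 6 KO libraries and 3.41 to 14.3 CPM in WT (edgeR adjusted p = 0.0824). The other macrophage markers did not pass the test. The summed level was 203 to 920 CPM in KO and 99.96 to 702 in WT. Mrc1, which sinusoidal endothelium also expresses, made up to 714 CPM of this sum. Mrc1 and Vcam1 averaged 329 and 98.4 CPM in KO and 283 and 65.6 in WT. The other markers of this list averaged less in KO, with overlapping groups except for Marco. Spi1, the floxed gene, stood at 9.10 to 101 CPM in KO and 6.22 to 50.1 in WT. Its gene total includes exons outside a deletion and gives no check of the labels. In bulk RNA, fewer cells of a type and less RNA per cell cannot be told apart. The embryos are separate samples, and adjusted p-values here set the difference between the groups against the spread between embryos.

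The libraries differed in 3 other respects that touched these RNAs. WT replicate 1 stood apart in most members, as described with each. All 4 WT libraries and KO replicates 2 and 3 held Xist, the RNA of the inactive X chromosome of female cells, at 106 to 361 CPM. KO replicates 1, 4, 5 and 6 held it at 1.36 to 2.38 CPM and had 121 to 155 CPM of Y-linked transcripts, against 5.61 to 18.4 CPM in the other libraries. All WT embryos were thus female by expression and the KO embryos mixed. Long transcripts were also relatively higher in KO. Across genes, Spearman's rho of relative expression with transcript length lay between 0.0672 and 0.141 in the KO libraries and between -0.148 and -0.0766 in the WT libraries.

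On a scale per length (TPM, summed over a gene's transcripts), Gas5 and Malat1 were the most abundant members and Neat1 and Snhg12 the least, in each of the 10 libraries. Gas5, a growth-arrest RNA with many snoRNAs in its introns, averaged 1023 ± 405 TPM in WT (SD, n = 4). Malat1 averaged 909 ± 638 TPM in WT. Of this mean, 900 TPM lay on the short form Malat1-203 (485 bases) and 9.02 TPM on the full-length Malat1-201 (6983 bases). The position of Malat1 was 160 among 53316 annotated genes in WT and 49 in KO. Its place on this scale thus depends on how its reads were divided between these forms.

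Snhg5, Snhg3, Snhg1 and Zfas1 followed at 142 ± 96.5, 118 ± 94.0, 105 ± 47.9 and 77.3 ± 46.1 TPM in WT, and these neighbours did not differ beyond their spread. Snhg12 averaged 25.4 ± 9.92 TPM and Neat1 2.76 ± 1.39 TPM in WT. The order in WT was the same with gene counts divided by mean effective length. That length is a mean over all annotated forms of a gene, so it does not settle the place of Malat1. Among WT libraries each host had its lowest TPM in WT replicate 3, where globin transcripts took 23.5% of counts, and the groups are compared below in CPM. The scale matters for Gas5 and Zfas1, whose mean TPM was higher in KO (1055 and 96.5) than in WT (1023 and 77.3), while their mean CPM was lower.

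Malat1 was higher in KO on average, and its groups overlapped. The KO libraries ranged from 610.3 to 1526 CPM with a median of 912, and WT replicates 1 to 4 had 238, 533, 351 and 1014 CPM. Only KO replicate 5 lay above the highest WT library, WT replicate 4. The means were 961 ± 310.5 CPM in KO (SD, n = 6) and 534 ± 342 in WT (SD, n = 4), and the fitted log2 fold change (KO over WT) was 0.85 with a standard error of 0.37. It was 1.36 without WT replicate 4 and 0.60 without WT replicate 1.

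Neat1 differed most between KO libraries. KO replicates 4, 5 and 6 had 66.3, 63.2 and 81.5 CPM, while KO replicates 1, 2 and 3 had 17.4, 16.0 and 6.72 CPM. WT replicates 1 to 4 had 5.61, 9.32, 18.0 and 15.3 CPM, so the lower 3 KO libraries lay within the WT range. The means were 41.9 ± 32.0 CPM in KO and 12.1 ± 5.64 in WT, with a log2 fold change of 1.80 (SE 0.67). Counts behind these values were low, 74 to 244 in WT and 101 to 2043 in KO.

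The higher Neat1 libraries were among those without Xist. The 4 KO libraries without Xist averaged 57.1 CPM of Neat1, 4.73 times the WT mean, but KO replicate 1, one of these 4, lay within the WT range at 17.4 CPM. The 2 KO libraries with Xist averaged 11.3 CPM, 0.94 times the WT mean. With the level of Xist as a covariate the log2 fold change of Neat1 was 0.35. This covariate was the log2 level of Xist and not sex alone. Among libraries with Xist, it stood at 361 and 346 CPM in KO replicates 2 and 3 and at 106 to 149 CPM in WT. Malat1 showed a smaller split, with 1044 CPM in KO libraries without Xist and 796 in those with it, and a log2 fold change of 0.66 with the covariate. No WT embryo lacked Xist, so sex and genotype cannot be told apart for these 4 KO libraries. KO replicates 4, 5 and 6, higher in Neat1, also held more of the summed granulocyte markers. These stood at 209 to 1241 CPM, against 12.6 to 108 in KO replicates 1, 2 and 3. Globin transcripts took 1.99% to 12.4% of counts in KO replicates 4, 5 and 6, against 0.296% to 0.383%. WT replicate 3 was the highest library in both, at 2108 CPM and 23.5%, with Neat1 at 18.0 CPM. The part of other cells in the Neat1 split was not tested.

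**Figure D1:**
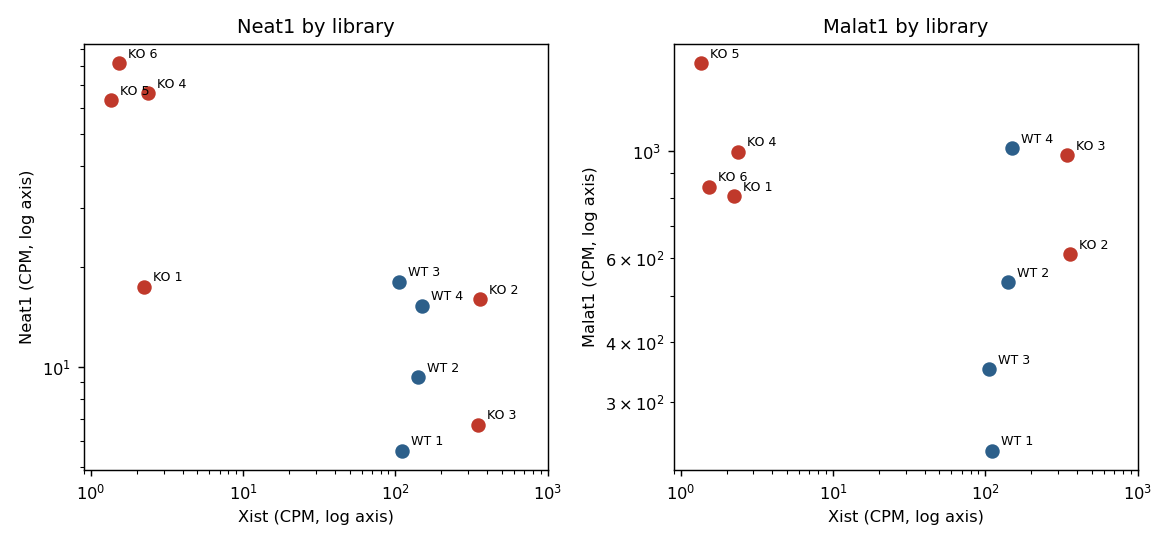
Neat1 (left) and Malat1 (right) in CPM against Xist in CPM, both on log axes, for each of the 6 KO (red) and 4 WT (blue) libraries. KO replicates 4, 5 and 6, with Xist below 3 CPM, hold Neat1 at 63.2 to 81.5 CPM, KO replicate 1, also below 3 CPM of Xist, holds it at 17.4 CPM, and KO replicates 2 and 3, with Xist at 361 and 346 CPM, hold Neat1 within the WT range.

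The 6 snoRNA hosts were lower in KO on average in CPM (on TPM, Gas5 and Zfas1 were not), each with overlapping groups, and much of the difference came with WT replicate 1. Snhg3, which hosts the U17 snoRNAs Snora73a and Snora73b, had 117 CPM in WT replicate 1 and 30.5, 36.7 and 34.8 CPM in WT replicates 2, 3 and 4. The KO libraries ranged from 16.2 to 40.02 CPM with a median of 25.7, and 5 of the 6 lay below the lowest WT library. The means were 26.1 ± 8.66 CPM in KO and 54.8 ± 41.7 in WT, and the log2 fold change was -1.07 (SE 0.39). Without WT replicate 1 it was -0.38.

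Snhg5, the host of Snord50a and Snord50b, had 240.3 CPM in WT replicate 1 and 89.6, 61.4 and 89.6 CPM in the other WT libraries. The KO libraries lay between 48.0 and 74.9 CPM with a median of 58.7, and 3 of them were below the lowest WT library. The means were 59.2 ± 9.96 CPM in KO and 120.2 ± 81.2 in WT. The log2 fold change was -1.02 (SE 0.32), and -0.44 without WT replicate 1.

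Snhg1, whose introns carry a row of C/D box snoRNAs, had 138, 70.1, 50.1 and 88.0 CPM in WT replicates 1 to 4. The KO libraries ranged from 37.6 to 85.4 CPM with a median of 52.9. Again WT replicate 1 was the highest library and 3 KO libraries lay below all WT libraries. The means were 56.7 ± 16.6 CPM in KO and 86.7 ± 37.8 in WT, with a log2 fold change of -0.61 (SE 0.29), or -0.29 without WT replicate 1.

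Snhg12, a host of H/ACA and C/D box snoRNAs, did not follow WT replicate 1 in this way. WT replicates 1 to 4 had 21.1, 17.7, 12.2 and 24.8 CPM, and the KO libraries ranged from 8.38 to 20.7 CPM with a median of 11.8. KO replicate 5 lay in the upper part of the WT range, and 4 of 6 KO libraries were below the lowest WT library. The means were 12.3 ± 4.42 CPM in KO and 18.9 ± 5.34 in WT. The log2 fold change was -0.62 (SE 0.33), and -0.56 without WT replicate 1.

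Gas5 had 987, 565, 451 and 825 CPM in WT replicates 1 to 4. The KO libraries ranged from 414 to 776 CPM with a median of 526, inside the WT range but for the lowest. The means were 541 ± 126 CPM in KO and 707 ± 244 in WT, and the log2 fold change was -0.39 (SE 0.24), or -0.18 without WT replicate 1.

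Zfas1, which begins next to the gene Znfx1 and hosts the Snord12 family, had 194, 71.8, 64.0 and 77.7 CPM in WT replicates 1 to 4. The KO libraries ranged from 62.2 to 121 CPM with a median of 76.9. Apart from WT replicate 1, all WT libraries lay within the KO range. The means were 81.9 ± 20.9 CPM in KO and 102 ± 61.5 in WT. The log2 fold change was -0.31 (SE 0.31), and it turned to 0.20 without WT replicate 1.

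**Figure D2:**
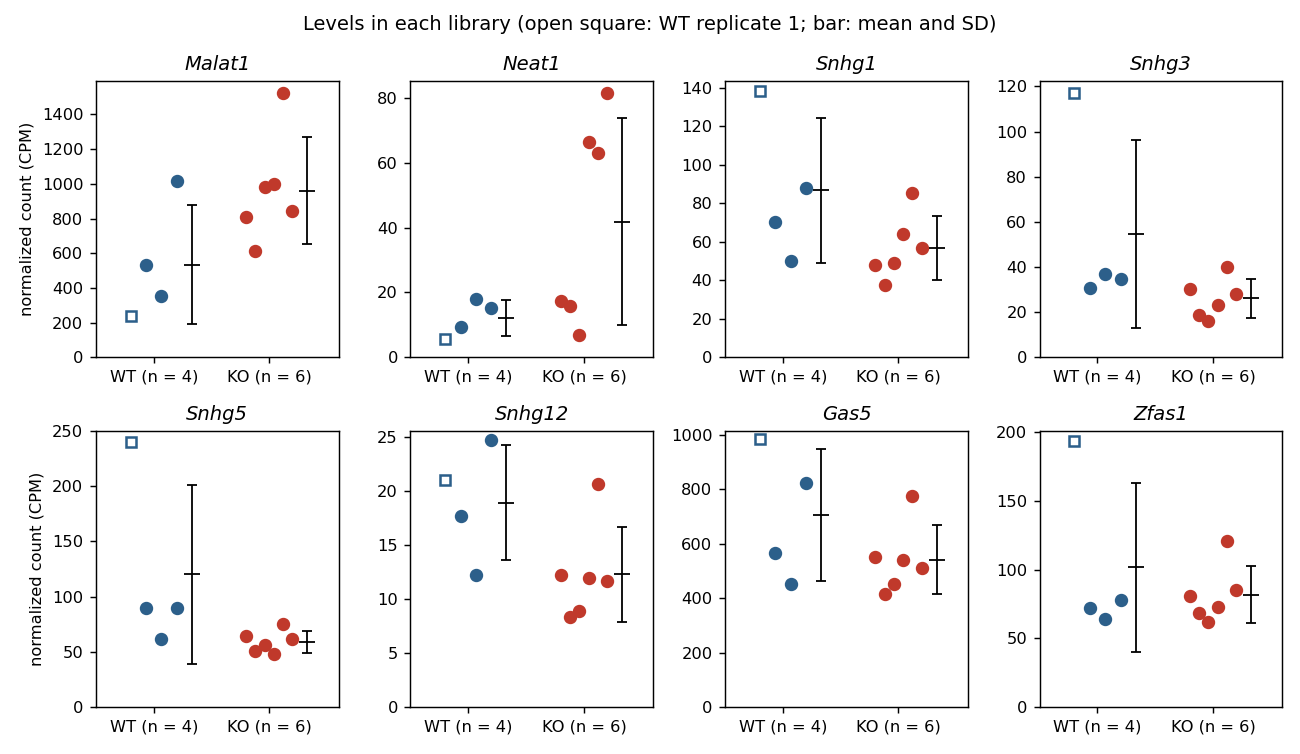
Normalized counts (CPM, axes from 0) of each member in the 4 WT (blue) and 6 KO (red) libraries, with the mean and SD of each group as a black bar. WT replicate 1, the open square, is the highest library for Snhg1, Snhg3, Snhg5, Gas5 and Zfas1 and the lowest WT library for Malat1 and Neat1.

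None of the 8 members passed an adjusted p below 0.1 in edgeR's quasi-likelihood test over all genes, where 1.32% of 16725 genes were called higher and 2.67% lower. None had groups that did not overlap, while all KO libraries were above all WT libraries for 2.88% of genes and below them for 3.48%. The members were chosen with this comparison known, so nothing is read from these counts. The median log2 fold change was -0.61 over the 6 hosts and 0.06 over all genes tested.

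Relative to the mean of the other 3 WT libraries, WT replicate 1 had 3.45 times as much Snhg3, 2.997 times Snhg5, 2.72 times Zfas1, 1.99 times Snhg1, 1.61 times Gas5 and 1.16 times Snhg12. It had 0.375 times as much Malat1 and 0.395 times as much Neat1. The same library had 260 CPM of summed endothelial markers, against 2777 to 4017 in the other WT libraries, and 99.96 CPM of macrophage markers against 585 to 702. The part of these other cells in the levels of the members was not tested.

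Correcting for transcript length moved the nuclear RNAs more than the hosts. With a loess offset on transcript length in each library, Malat1 stood at a log2 fold change of 0.51 and Neat1 at 1.14. The hosts lay between -0.999 and -0.29 with that offset. With Xist as a covariate the hosts lay further below 0, between -1.52 for Snhg3 and -0.57 for Zfas1.

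**Figure D3:**
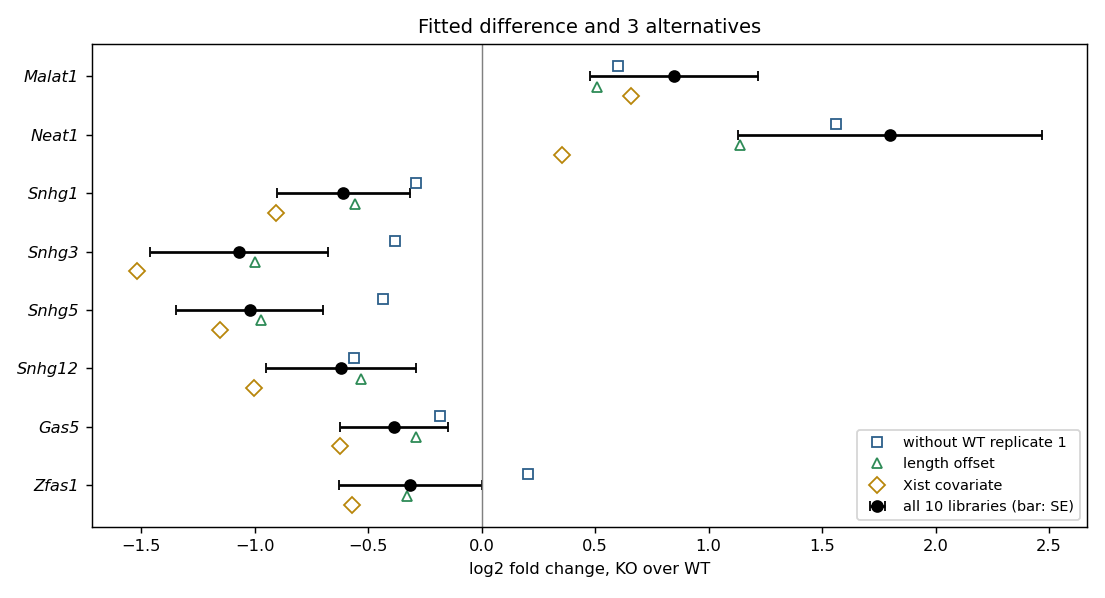
Fitted log2 fold change (KO over WT) of each member with all 10 libraries (black, bar: standard error), without WT replicate 1 (squares), with a length offset (triangles) and with Xist as a covariate (diamonds). Leaving out WT replicate 1 moves Snhg3 from -1.07 to -0.38 and Zfas1 from -0.31 to 0.20, and the Xist covariate moves Neat1 from 1.80 to 0.35.

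Reads of Malat1 were divided between overlapping entries. Of the reads estimated for Malat1 and Gm37376 together, Gm37376 took 41.6% to 51.1% in each library, although its 453 bases all lie within Malat1-201 (positions 280 to 732). The libraries do not mark strand as far as the methods tell, so reads of the 2 strands cannot be told apart there. Gm37376 was not in the gene table, and the gene-level Malat1 counts above leave out its reads. The sum of both entries was 1756 ± 499 CPM in KO and 1063 ± 715 in WT, with 1142 to 2615 CPM in KO and 441, 1035, 705 and 2072 CPM in WT replicates 1 to 4, a similar pattern to Malat1 alone.

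Within Malat1, the short form Malat1-203 (485 bases, of which 182 lie in the Gm37376 segment) held most of the estimated counts. The full-length Malat1-201 held 13.8% to 21.4% of the gene's counts in KO and 12.6% to 18.9% in WT. On its own, Malat1-201 ranged from 116 to 253 CPM in KO with a median of 171, and had 41.7, 75.6, 66.5 and 128 CPM in WT replicates 1 to 4. It was above the highest WT library in 5 of the 6 KO libraries, against 1 of 6 for the gene total. The means were 171 ± 47.4 CPM in KO and 78.0 ± 36.3 in WT. Long transcripts were relatively higher in KO across genes, and no length offset was applied to Malat1-201. The part of that trend in its level was not tested.

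Most Neat1 counts were on the short isoform in each library except KO replicate 1. The long isoform Neat1-201 took 32.5% to 60.4% of Neat1 estimated counts in KO, with a median of 34.2%. In WT replicates 1 to 4 it took 33.5%, 24.4%, 23.4% and 3.28%. The highest share was that of KO replicate 1 and the lowest that of WT replicate 4, where it rested on 3.54 estimated counts. Neat1-201 also had few estimated counts in WT replicates 1 to 3 (25.1, 25.8 and 57.1) and KO replicates 2 and 3 (32.9 and 43.2). The mean share was 38.9 ± 10.7% in KO and 21.1 ± 12.7% in WT, and 5 of 6 KO libraries lay above the highest WT library, KO replicates 5 and 6 only just (both 33.6%). On TPM the mean shares were 8.55% and 3.90%, and 4 of 6 KO libraries lay above the highest WT library. Long transcripts were relatively higher in KO across genes, and no length offset was applied to these shares. The part of that trend in the shares was not tested.

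**Figure D4:**
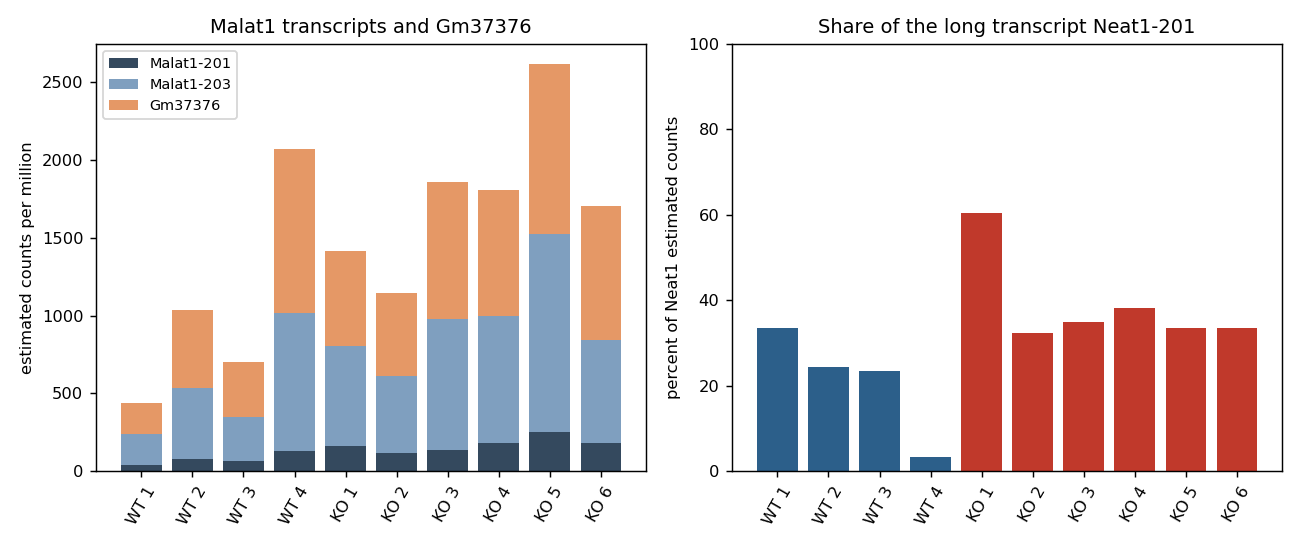
Left, CPM from estimated counts on Malat1-201, Malat1-203 and the opposite-strand entry Gm37376, stacked, for each library. Right, the percentage of Neat1 estimated counts on the long transcript Neat1-201 (WT blue, KO red), which is 3.28% in WT replicate 4 and 60.4% in KO replicate 1.

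The hosts Gas5, Snhg1, Snhg5 and Zfas1 have annotated transcripts that retain introns, which keep snoRNA sequences within the host RNA. These took 24.8 ± 3.49% of Gas5 TPM in KO and 27.0 ± 4.01% in WT. For Snhg1 the share was 34.9 ± 8.32% in KO and 45.2 ± 8.27% in WT, for Zfas1 35.4 ± 6.90% and 42.6 ± 13.9%, and for Snhg5 30.3 ± 6.92% and 22.0 ± 10.1%. The groups overlapped for each of these 4 hosts, and the low Snhg5 mean in WT came with WT replicate 4, at 7.07%.

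The snoRNAs themselves are short and have no poly(A) tail, so the protocol is not made to capture them. Of 30 snoRNA entries within the 6 hosts, 19 reached 3 estimated counts over all 10 libraries together, and all entries summed to 1297 counts. Snora73b, within an intron of Snhg3, held 865 of these and had counts in all 10 libraries. Its level was 2.69 to 5.06 CPM in KO and 17.2, 5.01, 6.57 and 6.80 CPM in WT replicates 1 to 4, so WT replicate 1 was again the highest library and 5 of 6 KO libraries lay below all WT libraries. Reads from an unspliced host and from a snoRNA cannot be told apart in such an entry.

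Several host loci overlap other genes. Of the 986 exonic bases of Snhg3 (chr4:132348014-132353686, minus strand), 71.5% are shared with Gm17300 on the opposite strand, and 135 bases with Rcc1, a regulator of chromosome condensation on the same strand. Gm17300 took 21.1% to 41.2% of the counts of Snhg3 and Gm17300 together, without a clear split by group. Zfas1 shares 82 exonic bases with Znfx1 on the opposite strand. Rcc1 and Znfx1 did not pass the test, with log2 fold changes of -0.37 (SE 0.31) and -0.05 (SE 0.34).

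Of the nearest genes within 5000 bases, 4 are given here, and they did not pass the test either. They were Slc3a2, an amino acid transporter chain 106 bases from Snhg1 (-0.46, SE 0.24), Trnau1ap, 739 bases from Snhg12 (-0.45, SE 0.19), Frmd8 near Neat1 (0.65, SE 0.34) and Phactr4 near Snhg3 (0.02, SE 0.22). Each value is a log2 fold change of KO over WT.

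The 6 hosts varied together across the 10 libraries. The 15 pairs had a Pearson's r of log2 CPM from 0.60 to 0.95 with a median of 0.83, highest for Snhg1 with Gas5 and lowest for Snhg12 with Zfas1. Malat1 had negative r with each host, from -0.59 for Snhg5 to -0.05 for Snhg12. Within the 6 KO libraries alone Malat1 had positive r with each host, from 0.58 for Snhg3 to 0.94 for Snhg1. These are descriptions over libraries that share depth, cell makeup and group differences.

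Among 9487 genes with a mean of at least 10 CPM, the pattern most like Malat1 was that of Cdkn1b, a cell cycle inhibitor (r = 0.98), followed by Rock2 (0.98) and Atxn1 (0.97). Neat1 was most like Stk17b (0.96), Ctps2 (0.95) and Dap (0.95). Snhg5 was most like Aatf (0.98), Npm3 (0.98) and Snu13 (0.97), of which Snu13 is a core protein of C/D box snoRNPs. Gas5 was most like Ppil4 (0.98), Rps7 (0.96) and Eef1b2 (0.96), where the latter pair code for a ribosomal protein and an elongation factor.

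For the other hosts the leading genes were Gsto1, Polg2 and Haus1 with Snhg1 (0.96, 0.96 and 0.95) and Mtx2, Snrpg and St3gal6 with Snhg3 (0.96 each). Rpl27a, Vkorc1 and Rpl30 led with Snhg12 (0.94, 0.94 and 0.94), and Zmat2, Spata7 and Mettl15 with Zfas1 (0.95, 0.95 and 0.93). All, here and in the preceding paragraph, are values of r over 10 libraries. Each is 1 of the 3 highest among 9487 genes, and every member had such values of at least 0.93. Nothing is read from the functions of the genes named. The part of WT replicate 1 in these values was not tested.

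Other noncoding snoRNA hosts were compared by the same fit. Of 10 tested, 0 passed at an adjusted p below 0.1 in edgeR's quasi-likelihood test, and 2 were lower and 0 higher at an unadjusted p below 0.05, where 1701 and 1438 of all 16725 genes were. DESeq2 called 1 without a fold-change threshold and 0 with the study's settings. Their median log2 fold change was -0.34, with 9 of the 10 below 0, where 7841 of the 16725 genes were. Snhg20 had 17.1 ± 3.13 CPM in KO and 26.5 ± 5.58 in WT (edgeR adjusted p = 0.197), and Snhg11 12.9 ± 6.94 and 29.1 ± 24.4 (edgeR adjusted p = 0.221), with 65.8 CPM in WT replicate 1.

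Protein-coding genes that host snoRNAs in their introns had 4 of 19 called lower and none higher, and all 19 had a log2 fold change below 0 (median -0.50). Over all 16725 genes tested, 2.67% were called lower and 7841 were below 0. The chaperone gene Hspa8 fell from 8598 ± 2477 CPM in WT to 4294 ± 1091 in KO (edgeR adjusted p = 0.0824), and its groups did not overlap. Rack1, a component of the small ribosomal subunit, fell from 1740.4 ± 432 to 1151 ± 88.8 CPM (edgeR adjusted p = 0.0997), also without overlap. Nop56, a core protein of C/D box snoRNPs, fell with a log2 fold change of -0.86 (SE 0.24). WT replicate 1 was the highest library for Hspa8, Rack1 and Nop56, but not for the other called gene.

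Proteins that build snoRNPs showed 5 of 18 called lower, none higher and all 18 below 0, with a median log2 fold change of -0.65. Of all 16725 genes tested, 2.67% were called lower and 7841 lay below 0. Nhp2, a core H/ACA protein, fell from 391 ± 156 CPM in WT to 181 ± 33.1 in KO (edgeR adjusted p = 0.0824). Its lowest WT library, at 285 CPM, lay above the highest KO library, at 206. Dkc1, the pseudouridine synthase of H/ACA snoRNPs, fell from 371 ± 154 to 214 ± 18.6 CPM (edgeR adjusted p = 0.0953), and the assembly factors Znhit3 and Ruvbl2 fell with log2 fold changes of -1.11 (SE 0.23) and -0.87 (SE 0.23). Nop56 counts in both this list and the preceding one. WT replicate 1 was the highest library for all 5 called snoRNP genes.

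Among 11 other nuclear long noncoding RNAs, 1 was called higher and none lower, with 9 above 0 and a median log2 fold change of 0.76. Of the 16725 genes tested, 1.32% were called higher and 8884 lay above 0. Kcnq1ot1, an imprinted RNA that coats part of its own chromosome region, had 70.6 to 154 CPM in KO with a median of 104, and 14.9, 19.3, 26.0 and 31.6 CPM in WT replicates 1 to 4. The groups did not overlap and Kcnq1ot1 was higher in KO by a log2 fold change of 2.27 (SE 0.30, edgeR adjusted p = 0.0743). It lies antisense within Kcnq1, and strands cannot be told apart here. Firre, an X-linked RNA, had 32.6 ± 7.65 CPM in KO and 16.9 ± 9.93 in WT (edgeR adjusted p = 0.189).

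The 15 proteins of paraspeckles had a median log2 fold change of -0.11, and none was called lower. Tardbp had a log2 fold change of -0.43 (SE 0.19, edgeR adjusted p = 0.235). Among 18 factors of nonsense-mediated decay, Smg6, its endonuclease, and Smg1, its kinase, were higher in KO by 1.20 (SE 0.28) and 0.72 (SE 0.19) on the log2 scale, and Rbm8a, a protein of the exon junction complex, was lower by a log2 fold change of -0.65 (SE 0.17). Their edgeR adjusted p-values were 0.0824, 0.0910 and 0.0884, and the median of the list was -0.05. No other gene of this list was called, and 8 of the 18 lay above 0 and 10 below. Of all 16725 genes tested, 1.32% were called higher, 2.67% were called lower and 8884 lay above 0.

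None of these list genes passed when WT replicate 1 or KO replicate 1, 2, 5 or 6 was left out, or with Xist as a covariate, settings in which no gene of the whole table passed. Without KO replicate 4, 1 list gene passed, of 1 gene in the whole table. With the length offset, the 4 genes called higher no longer passed and 5 list genes were called lower.

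**Figure D5:**
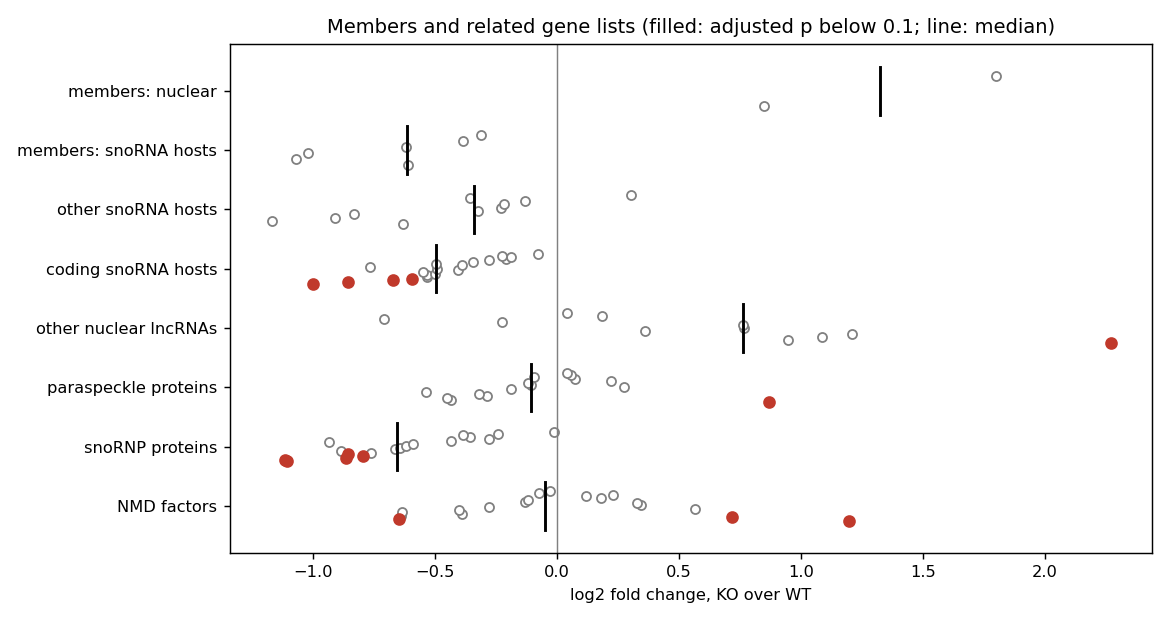
Log2 fold change (KO over WT) of each gene of the members and of 6 related lists. Filled points are genes at an edgeR adjusted p below 0.1, and vertical lines are medians. No member is filled, the snoRNP list (median -0.65) and the coding snoRNA hosts (median -0.50) lie below 0 throughout, and Kcnq1ot1 at 2.27 is the highest point.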

How the data were processed

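LT-HSC RNA of 10 embryos was made into libraries by SmartSeq2, sequenced single-end, and quantified by the authors with kallisto 0.44.0 after bcl2fastq 2.20 (versions from the submitters' processing notes) against Gencode vM16 (GRCm38). The authors deposited estimated counts and TPM for each transcript, and a table of gene counts, which are these estimates summed by symbol and rounded. Positions and transcript names were taken from Gencode vM21 on the same build, where 133540 of 133944 transcripts matched. Member sums of the transcripts were within 1 count of the gene table, except for Malat1 (up to 22.7 counts). Promoter sequences came from RefSeq and covered 7 of the 8 members.

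Genes whose counts summed to 11 or more over the libraries (16725) entered a comparison with edgeR 4.0.16 (R 4.3.3, TMM, glmQLFit and glmQLFTest) at a Benjamini-Hochberg adjusted p below 0.1, the threshold of the study. Standard errors were derived from the F statistic. CPM used TMM library sizes; log2 CPM for correlations used a prior count of 2. DESeq2 1.42.0 was an alternative. The fit was tested on simulated data. Xist and Y-linked RNAs were read from the transcript tables. Retained-intron shares used the annotated transcript type.

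The members and lists were chosen with earlier results of these data known. Genes named are the members, up to 6 called genes of each list (or the 2 with the smallest p where fewer than 2 were called), the 3 genes most like a member, and overlapping or neighbouring genes; marker genes and the other overlapping entries were named after their values were seen. Gene lengths were matched for 99.1% of the genes tested. Reads carry no molecular identifiers. Results for some items that the naming rule covers are not reported here.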

Additional observations from a re-analysis of the deposited data

Results flagged for a closer look

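The cutoff for Dixon's ratio of gap to range gives about 1 in 20 groups by chance when groups are independent. The groups here were not, because the hosts varied together and Malat1 entered alone and summed with Gm37376. The count below is therefore not set against that rate. In 30 groups of libraries, 6 values lay far from the others of their group by this ratio. WT replicate 1 held 3 of them: Snhg3 at 117 CPM against 30.5 to 36.7 in the other WT libraries, Snhg5 at 240.3 CPM against 61.4 to 89.6, and Zfas1 at 194 CPM against 64.0 to 77.7. Snhg12 in KO replicate 5 stood at 20.7 CPM against 8.38 to 12.2 in the other KO libraries. The share of Neat1 TPM on the long transcript was 17.8% in KO replicate 1 and 5.41% to 7.83% in the other KO libraries. The share of Snhg5 TPM on transcripts with retained introns was 7.07% in WT replicate 4 and 25.4% to 28.9% in the other WT libraries.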

How the results depend on the processing

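Of 136 alternative values of the members' log2 fold changes, 133 moved by less than the SD between libraries and 1 changed sign (Zfas1, 0.20 without WT replicate 1); the others were Neat1 with Xist as a covariate (0.35) and Snhg3 and Snhg5 without WT replicate 1 (-0.38 and -0.44). Called members numbered 0, but 3 with DESeq2 without a fold-change threshold, 1 with the study's DESeq2 settings and 0 to 1 with a library left out, being 1 without KO replicate 3, WT replicate 3 or WT replicate 4; nothing is read from these counts. Genes called higher or lower, 221 and 446, were 998 and 1145 with DESeq2 and 585 higher with the study's settings, 36 higher with the length offset, 0 and 0 with Xist or at a threshold of 0.05, and 0 to 405 and 0 to 598 with a library left out. They fell to 0 and 0 without KO replicate 1, 2, 5 or 6 or WT replicate 1, and to 1 and 0 without KO replicate 4. List genes, 4 higher and 9 lower, were 0 and 5 with the length offset, 0 and 0 with Xist or at 0.05, 5 lower with DESeq2's size factors, 18 lower with DESeq2, and 0 to 4 and 0 to 11 with a library left out. The difference in the long share of Neat1 was 17.7 percentage points in estimated counts, and that of full-length Malat1 2.35. The cause of these changes was not tested. No paired analysis was possible because the labels give the groups no shared replicate numbers. Low counts limit Neat1 and Snhg12 most.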
